A study of Homo sapiens with 18 samples.

Results

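The genes EHMT1, EHMT2, WIZ, ZNF644 and CDYL encode the G9a and GLP histone methyltransferases and 3 proteins that work with them. They were taken by symbol from the gene table, which makes 5 of 26475 genes, and all 5 passed the filter on low counts. RNA-seq was run on 2 established human cell lines of uveal melanoma, a melanoma of the eye, named Mel92.1 and MP41. Each line was kept for 48 h with the solvent DMSO, with 1 µM of UNC0642 or with 1 µM of A366, in 3 biological replicates per group, which makes 6 groups and 18 libraries. UNC0642 and A366 are different small molecules that block the catalytic site shared by G9a and GLP, and DMSO was the control in either line. The question here was whether the target complex changed its own transcripts while its activity was blocked. An inhibitor of an enzyme need not change the enzyme's transcript, so the level of EHMT1 or EHMT2 does not check the treatment.

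G9a (EHMT2) and GLP (EHMT1) form a heterodimer that adds 1 or 2 methyl groups to lysine 9 of histone H3, a mark of repressed genes in euchromatin, and each also binds that mark through its ankyrin repeats. In Mel92.1 lysates, however, the study did not detect GLP bound directly to G9a by immunoprecipitation. WIZ is a zinc finger protein that joins the heterodimer and helps to hold it together on chromatin, and ZNF644 is another zinc finger partner that helps to bring the enzymes to DNA. CDYL is a chromodomain protein that binds methylated lysine 9 and links G9a to the repressor REST.

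The genes lie on 4 chromosomes of the GRCh38 build in GENCODE release 29. EHMT1 spans 137618963 to 137870016 on the plus strand of chromosome 9, and EHMT2 spans 31879759 to 31897687 on the minus strand of chromosome 6. WIZ spans 15419980 to 15449951 on the minus strand of chromosome 19. ZNF644 spans 90915298 to 91022272 on the minus strand of chromosome 1, and CDYL spans 4706159 to 4955551 on the plus strand of chromosome 6. An antisense gene, EHMT2-AS1, overlaps EHMT2 on the opposite strand and was not analysed here. The promoters of the methyltransferase genes are shown as background. They are reference sequences, the same for both lines, and say nothing of a difference between the lines. Each is 300 bases of RefSeq (GRCh38.p14), from 250 bases before to 50 after the annotated start, printed 5′ to 3′ with CG dinucleotides in capitals. EHMT1 is at chr9:137618755-137619054 (plus strand) and EHMT2 at chr6:31897649-31897948 (minus strand).
EHMT1: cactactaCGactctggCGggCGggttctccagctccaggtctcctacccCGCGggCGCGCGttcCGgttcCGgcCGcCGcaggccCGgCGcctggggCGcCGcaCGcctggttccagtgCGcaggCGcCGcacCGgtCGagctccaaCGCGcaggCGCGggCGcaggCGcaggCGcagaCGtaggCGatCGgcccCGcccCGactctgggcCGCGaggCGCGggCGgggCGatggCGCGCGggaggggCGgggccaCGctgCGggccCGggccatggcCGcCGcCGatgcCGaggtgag
EHMT2: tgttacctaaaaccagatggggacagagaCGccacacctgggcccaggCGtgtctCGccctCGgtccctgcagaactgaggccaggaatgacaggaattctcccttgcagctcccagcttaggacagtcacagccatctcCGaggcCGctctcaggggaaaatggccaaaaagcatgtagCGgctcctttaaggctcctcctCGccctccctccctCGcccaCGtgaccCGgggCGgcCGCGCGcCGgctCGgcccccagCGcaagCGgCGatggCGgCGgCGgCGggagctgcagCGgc
The EHMT1 window held 51 CG dinucleotides at 79.3% GC and the EHMT2 window 25 at 66.7% GC. The median over 35116 promoter windows of the same length was 14 CG dinucleotides at 58.7% GC. CG is its own reverse complement, so the counts are those of either strand.

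Library totals ran from 23601156 to 62941462 counts, with a median of 41955693. The share of counts on 4 ribosomal RNA genes was 3.31% to 32.8% per library, at its top in replicate 1 of UNC0642 in Mel92.1. Melanocyte genes (MITF, SOX10, PMEL, MLANA, TYR, TYRP1 and DCT) summed to 14999 to 24415 CPM, a count scaled to library size, in the 18 libraries. Immune genes summed to 0 to 1.19 CPM, epithelial genes to 0.0435 to 2.00 CPM and fibroblast genes to 22.5 to 53.3 CPM. Of the fibroblast genes, LUM gave 14.8 to 31.7 CPM and COL1A1 7.25 to 22.2 CPM. COL3A1 reached at most 0.279 CPM and DCN at most 0.437 CPM.

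The labels of 4 libraries, replicates 2 and 3 of A366 in either line, went against their content. With DMSO, 16 genes reached at least 20 CPM in Mel92.1 and at most 0.05 CPM in MP41, and 24 genes showed the opposite. In these 4 libraries the genes of the labelled line stood at 0.0392% or less of their DMSO level, and the genes of the other line at 92.8% to 116%. The study's own listing of values by replicate carries these libraries under the other line. They were therefore exchanged between the lines in the values below, with each replicate number kept, and the A366 results are also given as labelled and without these libraries.

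With DMSO, 4 of the 5 genes differed between the lines, against 69.4% of the 15799 genes tested. EHMT1 and WIZ were higher in Mel92.1, ZNF644 and CDYL were higher in MP41, and EHMT2 was close in both. Levels are CPM scaled by TMM factors, and tests are quasi-likelihood tests of edgeR whose p-values were adjusted by Benjamini-Hochberg over all genes tested, with calls at an adjusted p under 0.05. In bulk RNA, fewer cells that express a gene and less of its RNA per cell cannot be told apart.

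EHMT1, the gene of GLP, had 94.1, 84.1 and 81.7 CPM in Mel92.1 and 39.6, 41.1 and 38.9 CPM in MP41. The ranges did not overlap, and every Mel92.1 library was above every MP41 library. The share of all genes without overlap between the lines was not computed, and 69.4% of genes tested were called there. The difference was 1.12 on the log2 scale (95% interval 0.93 to 1.31), or 2.17-fold (edgeR's quasi-likelihood test, adjusted p = 6.23e-09). EHMT2, the gene of G9a, had 106, 106 and 109 CPM in Mel92.1 and 96.0, 97.7 and 102 CPM in MP41. Its ranges did not overlap either, with Mel92.1 higher, but the log2 difference of 0.12 was not called (95% interval -0.049 to 0.29, edgeR's quasi-likelihood test, adjusted p = 0.188). This small difference changed direction with the processing: it was -0.25 once GC content and transcript length were given an offset (edgeR's quasi-likelihood test, adjusted p = 0.00932) and 0.12 in limma voom with sample quality weights (adjusted p = 0.0114).

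WIZ had 106, 115 and 121 CPM in Mel92.1 and 42.3, 34.9 and 44.4 CPM in MP41. It showed the widest difference of the 5 genes, 1.49 on the log2 scale (95% interval 1.27 to 1.71), or 2.80-fold (edgeR's quasi-likelihood test, adjusted p = 1.19e-09). ZNF644 had 35.6, 28.8 and 27.3 CPM in Mel92.1 and 65.6, 63.7 and 66.2 CPM in MP41. This zinc finger partner thus moved the other way from WIZ, with a log2 difference of -1.09 (95% interval -1.41 to -0.77, edgeR's quasi-likelihood test, adjusted p = 6.27e-06). CDYL had 49.98, 44.3 and 45.5 CPM in Mel92.1 and 95.3, 93.6 and 95.9 CPM in MP41. The log2 difference of CDYL was -1.03 (95% interval -1.23 to -0.82, edgeR's quasi-likelihood test, adjusted p = 3.87e-08), with MP41 higher in 3 of 3 libraries. The directions of these 4 genes held in all alternatives run, and each was called in all of them.

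**Figure D1:**
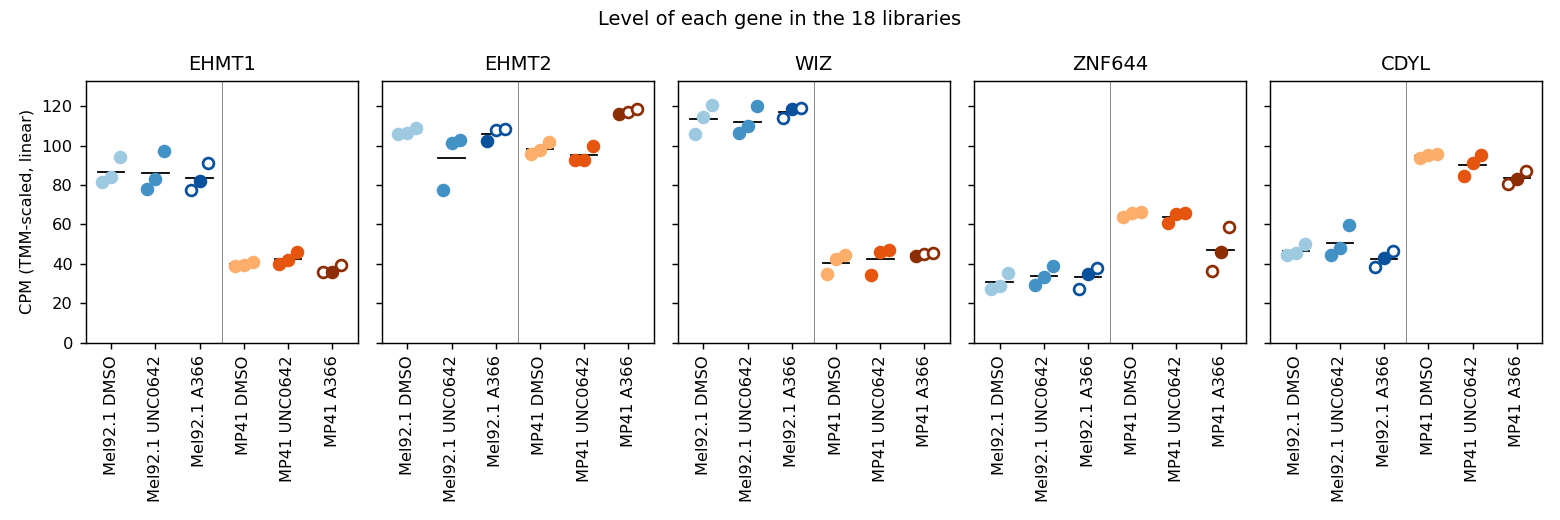
Level of each gene in CPM (TMM-scaled, linear axis from 0) in the 18 libraries, in 6 groups of 3, with Mel92.1 left and MP41 right of the grey line. Points are libraries, open points are the 4 libraries exchanged between the lines, and black bars are group means; EHMT1 and WIZ sit higher in Mel92.1, ZNF644 and CDYL higher in MP41, and EHMT2 near 100 CPM in both (group means 93.8 to 117 CPM).

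Dividing CPM by the length of the longest annotated transcript puts the levels of different genes on a common but approximate scale. The transcripts expressed may be shorter, which was not examined, so the order between genes depends on this choice. With DMSO in Mel92.1 the order by mean CPM per kilobase was EHMT2 (26.0 ± 0.389, SD, n = 3), WIZ (18.1 ± 1.19), CDYL (13.6 ± 0.873), EHMT1 (11.05 ± 0.838) and ZNF644 (5.30 ± 0.768). In MP41 the order was CDYL (27.8 ± 0.352), EHMT2 (23.9 ± 0.730), ZNF644 (11.3 ± 0.229), WIZ (6.44 ± 0.790) and EHMT1 (5.09 ± 0.142). Neighbours in either order did not overlap between their 3 libraries, so EHMT2 stood above EHMT1 per kilobase in every DMSO library. With UNC0642 in Mel92.1, EHMT2 overlapped WIZ and WIZ overlapped CDYL, and with UNC0642 in MP41, WIZ overlapped EHMT1. With A366, CDYL overlapped EHMT1 in Mel92.1 and ZNF644 overlapped WIZ in MP41, where EHMT2 (28.4 ± 0.311 CPM per kilobase) stood above CDYL (24.5 ± 1.00).

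The median difference between the lines of the genes around EHMT1, CDYL and ZNF644 had the same direction as these genes. Of all 15799 genes tested, 5457 were called higher in Mel92.1 and 5505 higher in MP41. Of 64 other tested genes within 2 Mb of EHMT1, 50 were called higher in Mel92.1 and 3 higher in MP41, with a median log2 difference of 1.55. Around ZNF644, 13 of 20 genes were called higher in MP41 and 3 higher in Mel92.1 (median log2 difference -0.97), and around CDYL the counts were 14 and 6 of 22 (median -0.76). The quartiles around CDYL were of either sign, -1.32 and 0.17. WIZ stood above its surroundings, where the median over 60 genes was 0.30 and the upper quartile 0.74. Around EHMT2 the median over 135 genes was -0.054, with 44 called higher in either line. Genes of one region are not independent of each other, and these medians are given as a description.

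**Figure D2:**
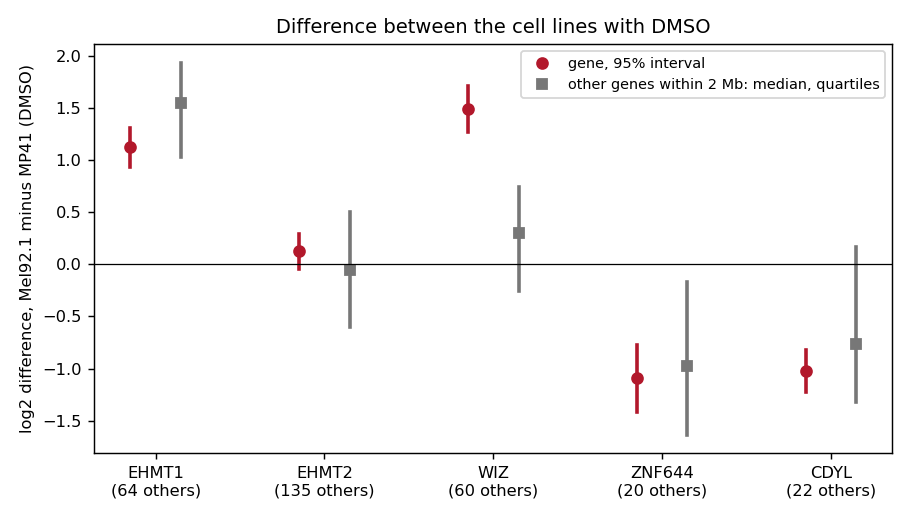
Log2 difference between the lines with DMSO, Mel92.1 minus MP41, for each gene (red circle, bar for the 95% interval) and for the other tested genes within 2 Mb (grey square for the median, bar from lower to upper quartile). EHMT1 at 1.12, ZNF644 at -1.09 and CDYL at -1.03 lie within the quartiles of the genes around them, and WIZ at 1.49 lies above the upper quartile of 0.74.

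UNC0642 changed none of the 5 genes past the threshold in either line. In Mel92.1, 0 of 5 were called, against 0.688% of 14528 genes tested, and in MP41, 0 of 5 were called, against 0.241% of 14956. No member had an unadjusted p under 0.05 in either comparison, and DESeq2 and limma voom called 0 of 5 as well. In Mel92.1 with UNC0642, EHMT2 had 77.5, 101 and 103 CPM, all below the DMSO range of 106 to 109 CPM. In that comparison 15.4% of genes had groups without overlap. The lowest EHMT2 value came from the library with 32.8% ribosomal RNA counts, replicate 1. The log2 change of EHMT2 was -0.19 (95% interval -0.42 to 0.033, edgeR's quasi-likelihood test, adjusted p = 0.567), and without that library it was -0.073 (adjusted p = 0.754 in the same test). With GC content and length of the transcripts offset, the changes with UNC0642 in Mel92.1 turned direction for EHMT2 (0.019), EHMT1 (0.25) and WIZ (0.29), and none was called. EHMT1 with UNC0642 had 97.5, 77.9 and 83.3 CPM in Mel92.1, on both sides of its DMSO libraries, and its log2 change was -0.015 (95% interval -0.24 to 0.21).

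The remaining 3 genes had changes of -0.026 (WIZ), 0.15 (ZNF644) and 0.11 (CDYL) on the log2 scale with UNC0642 in Mel92.1, and their ranges overlapped those with DMSO. In MP41 the log2 changes with UNC0642 were 0.093 for EHMT1 (95% interval -0.074 to 0.26) and -0.052 for EHMT2 (95% interval -0.18 to 0.080). EHMT2 had 92.8, 93.0 and 100 CPM there, and EHMT1 46.1, 39.95 and 42.0 CPM, and both overlapped their DMSO libraries. WIZ, ZNF644 and CDYL changed by 0.063, -0.033 and -0.076 on the log2 scale, also with overlap. The widest of the 10 intervals, that of ZNF644 in Mel92.1, reached from -0.19 to 0.49.

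A366 in Mel92.1 called 0 of 5 genes, against 0.213% of 14528, with no unadjusted p under 0.05 among them. EHMT1 had 82.0, 91.4 and 77.4 CPM and EHMT2 102, 108 and 108 CPM with A366, and each overlapped its DMSO libraries. Their log2 changes were -0.051 (95% interval -0.27 to 0.17) and -0.012 (95% interval -0.24 to 0.21). WIZ changed by 0.044, ZNF644 by 0.12 and CDYL by -0.13 on the log2 scale, again with overlap. DESeq2 called 0 of 5 and limma voom with sample quality weights called 1, ZNF644, with a log2 change of 0.27 (adjusted p = 0.0298). Of the 14528 genes, DESeq2 called 171 and limma voom 3087 in this comparison. Without the exchanged libraries, 1 A366 library was left in this line, its spread was taken from the other groups, and the log2 changes ran from -0.13 (CDYL) to 0.18 (ZNF644), with 0 called.

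A366 in MP41 called 3 of the 5 genes, against 46.0% of 14956 genes tested in that comparison. EHMT2 rose, and ZNF644 and CDYL fell. EHMT2 had 116, 117 and 118 CPM with A366, above the DMSO range of 96.0 to 102 CPM in 3 of 3 libraries. Its log2 change was 0.23 (95% interval 0.096 to 0.36), or 1.17-fold (edgeR's quasi-likelihood test, adjusted p = 0.00936). ZNF644 had 46.0, 58.6 and 36.4 CPM, all below the DMSO range of 63.7 to 66.2 CPM, and varied more than any other member in this group. Its log2 change was -0.49 (95% interval -0.78 to -0.21), or 0.710-fold (edgeR's quasi-likelihood test, adjusted p = 0.00921).

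CDYL had 83.3, 87.4 and 80.6 CPM with A366 in MP41, below the DMSO range of 93.6 to 95.9 CPM. Its log2 change was -0.20 (95% interval -0.35 to -0.060, edgeR's quasi-likelihood test, adjusted p = 0.0251). That call was lost on leaving out A366 replicate 1 or 3 or any of the DMSO replicates of MP41, with adjusted p from 0.0555 to 0.0946 in edgeR's quasi-likelihood test. EHMT1 had 36.1, 39.6 and 36.0 CPM, overlapping its DMSO range of 38.9 to 41.1 CPM, with a log2 change of -0.12 (95% interval -0.29 to 0.043). WIZ had 44.0, 45.7 and 45.1 CPM, with a log2 change of 0.12 (95% interval -0.13 to 0.38). The groups did not overlap for EHMT2, ZNF644 and CDYL, which was so for 58.1% of all genes in this comparison. The calls of EHMT2 and ZNF644 held on leaving out each of the 9 MP41 libraries in turn.

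**Figure D3:**
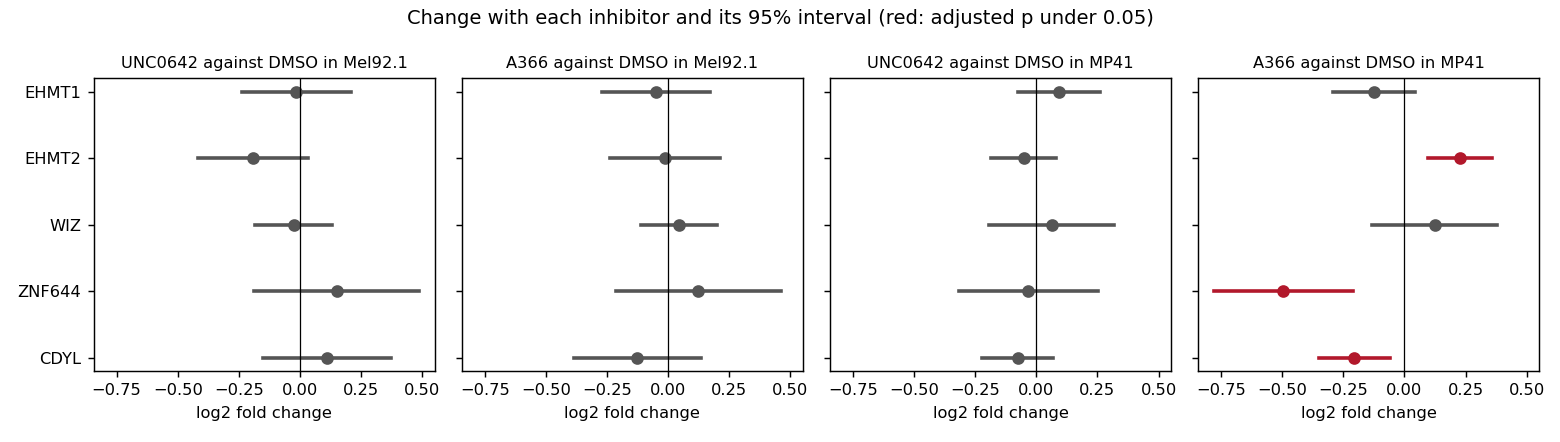
Log2 change of each gene with UNC0642 or A366 against DMSO in each line, with its 95% interval (bars), in 4 panels on one linear axis. Red marks an adjusted p under 0.05 in edgeR's quasi-likelihood test; the 3 red points are EHMT2 (0.23), ZNF644 (-0.49) and CDYL (-0.20) with A366 in MP41.

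The change with A366 in MP41 followed GC content across all genes, and the 3 genes called had the same sign as genes of like GC content. Over 14453 genes with a known GC content, the median log2 change rose from -0.30 below 40% GC to 0.34 at 60% GC and above, and Spearman's rho across genes was 0.46, where genes share the same libraries and are not replicates. The share of ribosomal RNA counts was 5.93%, 8.06% and 10.96% in the A366 libraries of MP41 and 3.31% to 5.10% with DMSO. In these A366 libraries, in the same order, ZNF644 had 46.0, 58.6 and 36.4 CPM. Over the 9 libraries of a line, Pearson's r of log2 CPM with the share was -0.83 in MP41 and 0.17 in Mel92.1 for ZNF644. In the same order it was -0.79 and 0.73 for CDYL, 0.81 and -0.87 for EHMT2, -0.63 and 0.43 for EHMT1, and 0.12 and 0.14 for WIZ. The Mel92.1 values include UNC0642 replicate 1, at 32.8% ribosomal RNA counts. That library had the line's lowest EHMT2 (77.5 CPM) and highest CDYL (59.8 CPM). In MP41 the A366 libraries had the highest shares, so share and inhibitor cannot be told apart. A cause was not tested. ZNF644 had the lowest GC content of the 5 (37.3%), followed by CDYL (44.8%), EHMT1 (53.5%), EHMT2 (60.9%) and WIZ (64.6%). Among genes within 2.5 percentage points of GC, the median log2 change was -0.30 for ZNF644, -0.11 for CDYL, 0.15 for EHMT1, 0.27 for EHMT2 and 0.35 for WIZ. EHMT2 at 0.23 was near the median of its like genes, ZNF644 at -0.49 and CDYL at -0.20 were below theirs, and EHMT1 at -0.12 and WIZ at 0.12 were below theirs as well.

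With that offset for GC and length, CDYL stayed past the threshold with a log2 change of -0.18 (edgeR's quasi-likelihood test, adjusted p = 0.0146). EHMT2 then changed by 0.059 (adjusted p = 0.432) and ZNF644 by -0.18 (adjusted p = 0.0903) in the same test, and neither was called. EHMT1 and WIZ stood at -0.0069 and 0.064 on the log2 scale.

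**Figure D4:**
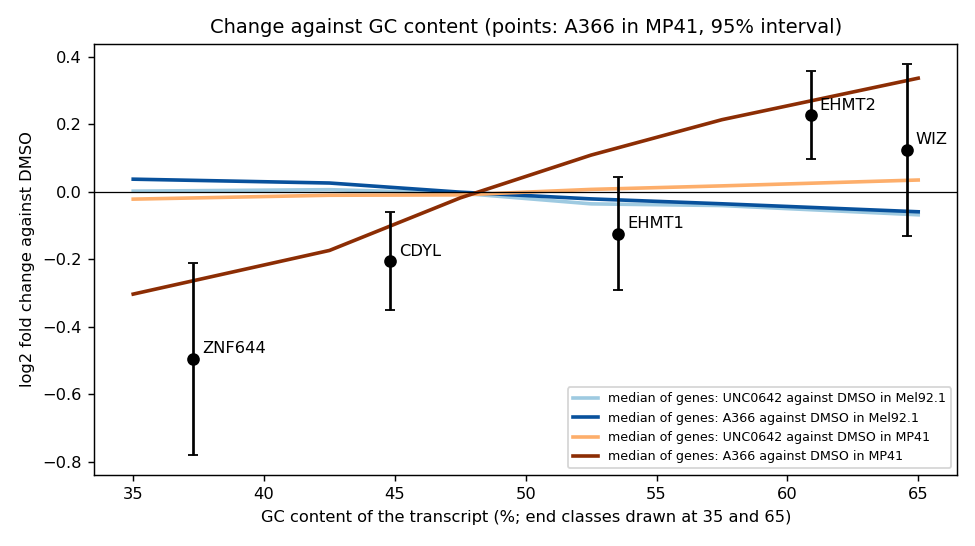
Log2 change against DMSO plotted against the GC content of the longest transcript in percent. Lines are medians of genes in classes of GC content for each inhibitor and line, and black points are the 5 genes with A366 in MP41 with their 95% intervals; the A366 line of MP41 climbs from -0.30 to 0.34, while the other lines stay between -0.068 and 0.037.

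Compared directly at 1 µM and 48 h, A366 and UNC0642 differed for 3 of 5 genes in MP41, against 43.1% of genes tested. Here 5 genes in 2 lines were compared, and the adjustment was over all genes tested in a line. EHMT2 was higher with A366 than with UNC0642, by 0.28 on the log2 scale (95% interval 0.15 to 0.41, edgeR's quasi-likelihood test, adjusted p = 0.00338). ZNF644 was lower with A366 by a log2 difference of -0.46 (95% interval -0.75 to -0.18, edgeR's quasi-likelihood test, adjusted p = 0.0137). EHMT1 was lower by -0.22 (95% interval -0.38 to -0.050, edgeR's quasi-likelihood test, adjusted p = 0.0373), a call that was lost on leaving out 7 of the 9 libraries of MP41, one at a time. The differences of WIZ (0.061, 95% interval -0.19 to 0.32) and CDYL (-0.13, 95% interval -0.27 to 0.016) were not called. UNC0642 and A366 shared the DMSO libraries of a line, so their changes against DMSO are not independent.

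In Mel92.1, 0 of 5 genes differed between A366 and UNC0642, against 0.165% of genes tested, with no unadjusted p under 0.05 among the 5 and 0 called by DESeq2 or limma voom. The widest log2 differences were those of CDYL (-0.24, 95% interval -0.50 to 0.023) and EHMT2 (0.18, 95% interval -0.045 to 0.41). The EHMT2 value again rests on Mel92.1 UNC0642 replicate 1, at 77.5 CPM.

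Averaged over both inhibitors and both lines, 0 of 5 genes were called, against 2.20% of 15799, with no unadjusted p under 0.05 and 0 called by DESeq2 or limma voom. The mean log2 changes were -0.016 for EHMT1 (95% interval -0.13 to 0.10), 0.00059 for EHMT2 (95% interval -0.10 to 0.11), 0.059 for WIZ, -0.055 for ZNF644 and -0.066 for CDYL. All 5 intervals lay between -0.25 and 0.19 on the log2 scale.

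A difference between the lines in the response was tested as an interaction, with the change of MP41 taken from the change of Mel92.1. For UNC0642, 0 of 5 genes were called, against 0.601% of 15799, with no unadjusted p under 0.05 and 0 called by DESeq2 or limma voom. For A366, 0 of 5 were called, against 13.8%, although 2 had an unadjusted p under 0.05. These were ZNF644, at 0.60 on the log2 scale (95% interval 0.14 to 1.05, edgeR's quasi-likelihood test, adjusted p = 0.0743), and EHMT2, at -0.27 (95% interval -0.51 to -0.024, adjusted p = 0.127). DESeq2 called ZNF644 (0.61, adjusted p = 0.0234), and limma voom with sample quality weights called ZNF644 (0.78, adjusted p = 6.68e-06) and EHMT2 (-0.28, adjusted p = 8.18e-05). Of the 15799 genes, DESeq2 called 3489 and limma voom 9276 for this interaction. The interactions of EHMT1 (0.048), WIZ (-0.11) and CDYL (0.054) for A366 had intervals that spanned 0.

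With the 4 libraries as labelled, the A366 groups mixed both lines, and the differences between the lines appeared as changes with the inhibitor. EHMT1 with A366 in MP41 was then 36.1, 91.4 and 77.4 CPM, and its log2 change was 0.80 (edgeR's quasi-likelihood test, adjusted p = 0.0712). WIZ stood at 1.21 (adjusted p = 0.0330), ZNF644 at -0.81 (adjusted p = 0.0110), CDYL at -0.76 (adjusted p = 0.0405) and EHMT2 at 0.18 (adjusted p = 0.0974) in the same test. In Mel92.1 as labelled, EHMT1 and WIZ changed by -0.71 and -0.70 and CDYL by 0.60, with 0 of 5 called. EHMT2, which differed least between the lines, had as labelled the narrowest spread of the 5 genes in the A366 groups for its level, at 113 ± 9.11 CPM in Mel92.1 and 111 ± 4.49 CPM in MP41 (SD, n = 3).

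Without the 4 libraries, MP41 had 1 A366 library, with the spread taken from the other groups. ZNF644 (-0.54, adjusted p = 0.000223) and CDYL (-0.23, adjusted p = 0.0345) were still called in edgeR's quasi-likelihood test, and EHMT2 stood at 0.19 (adjusted p = 0.0513). Against UNC0642 in that setting, EHMT1 (-0.28), EHMT2 (0.24) and ZNF644 (-0.51) were called, as with all libraries. The interactions for A366 without these libraries were 0.69 for ZNF644 (adjusted p = 0.114) and -0.30 for EHMT2 (adjusted p = 0.437) in that test.

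**Figure D5:**
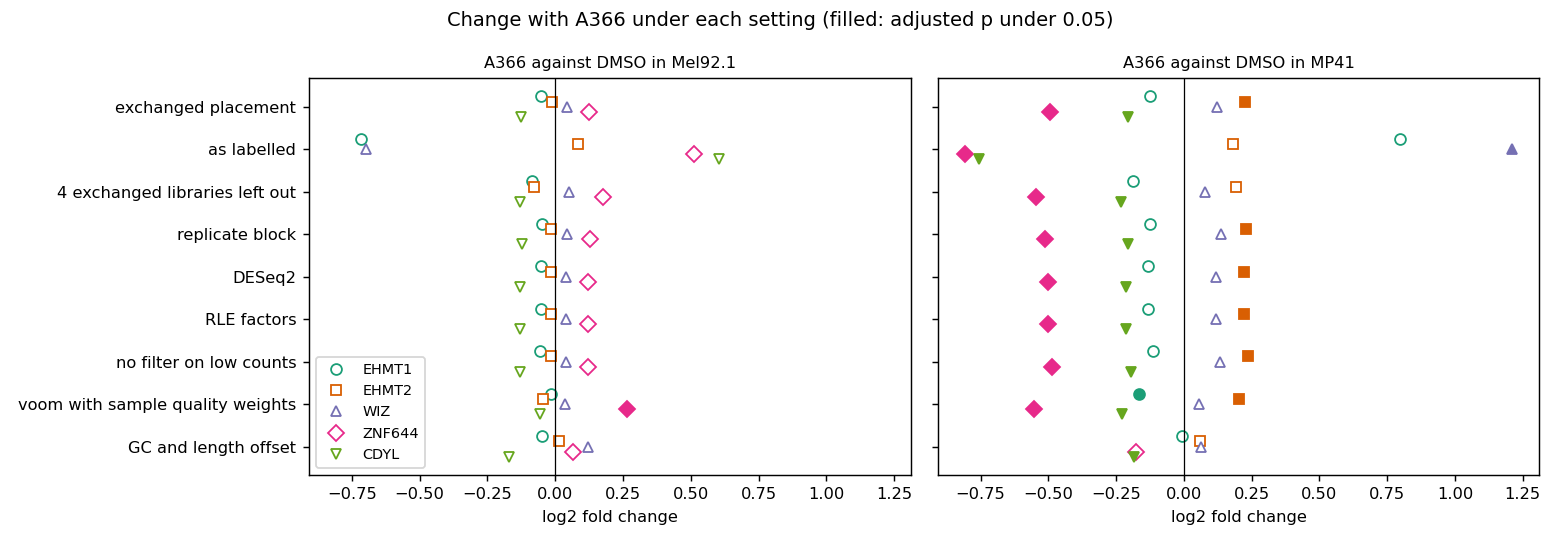
Log2 change of each gene with A366 against DMSO in Mel92.1 (left) and MP41 (right) under 9 settings, with filled symbols for an adjusted p under 0.05. The setting with the libraries as labelled stands apart, with EHMT1 and WIZ at -0.71 and -0.70 in Mel92.1 and at 0.80 and 1.21 in MP41; with the GC and length offset, EHMT2 and ZNF644 in MP41 are open symbols at 0.059 and -0.18.

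Other genes of the pathway were read from 2 lists, 15 partners of the complex and readers or writers of methylated lysine 9, and 8 enzymes that remove the mark. Of the partners, 14 passed the filter on low counts, all but CDYL2, which had at most 0.102 CPM in any library. UNC0642 called 0 of 14 partners and 0 of 8 erasers in either line, and A366 called 0 and 0 in Mel92.1. DESeq2 called 1 partner with UNC0642 in Mel92.1 and 0 elsewhere in these comparisons, and limma voom called 1 partner with UNC0642 and 5 partners with A366 in that line. Of all 14528 genes tested in Mel92.1, limma voom called 413 with UNC0642 and 3087 with A366, and DESeq2 384 with UNC0642. With A366 in MP41, 1 partner rose and 6 fell (median log2 change -0.21 over the 14), and 1 eraser rose and 5 fell (median -0.33 over the 8), where 46.0% of all genes were called and their median was 0.020. The 7 of 14 partners called are near that share.

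Among the partners with A366 in MP41, UHRF1, which binds methylated lysine 9 and hemimethylated DNA, changed by -0.45 on the log2 scale (edgeR's quasi-likelihood test, adjusted p = 0.000638). SUV39H2, which trimethylates lysine 9, changed by -0.43 (adjusted p = 0.000865), CBX5, the gene of HP1α, by -0.42 (adjusted p = 0.00164), and ZNF518B, a zinc finger partner of G9a, by -0.58 (adjusted p = 0.00169), in the same test. MPHOSPH8, a chromodomain reader of the mark, was the partner that rose, by 0.37 (edgeR's quasi-likelihood test, adjusted p = 0.00200). Among the erasers, KDM3A changed by -0.77 (adjusted p = 0.000239), KDM3B by -0.59 (adjusted p = 0.00220), KDM4C by -0.43 (adjusted p = 0.00280) and KDM7A by -0.56 (adjusted p = 0.00769) in that test. KDM4A was the eraser that rose, by 0.27 (edgeR's quasi-likelihood test, adjusted p = 0.0378), and like MPHOSPH8 in MP41 it is named after its value was seen.

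KDM3A, which removes the mono- and dimethyl marks that G9a and GLP add, had 79.5 to 102 CPM with A366 in MP41 and 146 to 153 CPM with DMSO, without overlap. Groups without overlap were seen for 58.1% of all genes in this comparison. With that offset, 6 of 14 partners, not all among those called without it, and 4 of 8 erasers were called, and with the libraries as labelled 3 and 3. As labelled, 4951 of all genes were called with A366 in MP41, and their number with the offset is not given here. KDM3A was -0.39 on the log2 scale with the offset and stayed past the threshold, while KDM7A at -0.11 (edgeR's quasi-likelihood test, adjusted p = 0.358), ZNF518B at -0.21 (adjusted p = 0.0992) and KDM4A at 0.23 (adjusted p = 0.0573) did not. The KDM4A call was also lost without the exchanged libraries (0.22, adjusted p = 0.133), as labelled (0.11, adjusted p = 0.500) and in 5 of the 9 fits that left out 1 MP41 library (A366 replicate 1 or 2, DMSO replicate 1 or 3, or UNC0642 replicate 2), with log2 changes from 0.17 to 0.34 over the 9 in edgeR's quasi-likelihood test. CBX5 was 0.028 with the offset and 0.42 as labelled on the log2 scale, so its direction rests on these choices, and UHRF1 (0.36), SUV39H2 (0.45) and ZNF518B (1.075) also turned as labelled. Over both inhibitors and both lines, 2 of 14 partners were called, against 2.20% of all genes tested. They were MPHOSPH8 at 0.33 (edgeR's quasi-likelihood test, adjusted p = 0.00562) and UHRF1 at -0.16 (adjusted p = 0.0295), a call lost on leaving out any 1 of 5 libraries (Mel92.1 DMSO or A366 replicate 1, MP41 DMSO replicate 2 or 3, or MP41 UNC0642 replicate 1). MPHOSPH8 changed by 0.59 and 0.022 with UNC0642 in Mel92.1 and MP41, and by 0.31 and 0.37 with A366. UHRF1 changed by -0.093 and -0.015 with UNC0642 and by -0.12 and -0.45 with A366, in the same order. Within a line, both were called only with A366 in MP41. Of the erasers 0 of 8 were called, where DESeq2 and limma voom each called 2 and, of all genes, 993 and 2815. Neither of these partners stayed past the threshold as labelled or with the offset.

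With DMSO, 12 of 14 partners and 5 of 8 erasers differed between the lines, against 69.4% of all genes tested. Of the partners, 8 were higher in Mel92.1 and 4 in MP41, and of the erasers, 1 and 4. KDM3A differed by -2.41 on the log2 scale (95% interval -2.69 to -2.13) and ZNF518B by 1.71 (95% interval 1.36 to 2.06), both wider than any of the 5 complex genes.

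After each line's mean was taken off, the genes whose log2 CPM was most like EHMT2 over the 18 libraries were MAPK8IP2 (Pearson's r = 0.952), FBXW4 (0.945) and PYGO2 (0.939), among 8660 genes with a mean of at least 10 CPM in each line. For EHMT1 they were ARHGAP19 (0.895), SEL1L3 (0.883) and H6PD (0.882). By Spearman's rho the genes named for EHMT2 ranked 2.5, 2.5 and 14.5 and those for EHMT1 6, 5 and 27 among the 8660. Between the complex genes, r was -0.63 for EHMT1 and EHMT2, 0.74 for EHMT1 and CDYL, -0.70 for EHMT2 and CDYL and 0.60 for EHMT1 and ZNF644. These values are a description over libraries that share depth and base composition, with the A366 libraries of MP41 apart from the rest.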

How the data were processed

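The authors deposited expected counts per gene, not normalized for library size, for 18 libraries. The submitters' processing notes name Bowtie2 2.1.0, RSEM 1.2.15 and hg38, and the protocol strand-specific libraries from oligo-dT beads, whereas the series' design text gives ribosomal RNA depletion, and which was done is not settled here. The study's methods give other steps (a mouse build, FPKM), which this table does not hold. Between 5.85% and 13.4% of a library's values were not whole, and counts were rounded. All columns were used (0 left out).

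Genes were filtered (filterByExpr), scaled (TMM) and tested with edgeR 4.0.16 in R 4.3.3 (quasi-likelihood, Benjamini-Hochberg, threshold 0.05), in 1 fit of 9 libraries per line, or of all 18 for both lines together. The members and lists were chosen with earlier results of these data known. Up to 4 listed genes per list and comparison, by adjusted p, and 3 genes like EHMT1 and EHMT2 were named. Alternatives were DESeq2 1.42.0, limma 3.58.1 voom, RLE factors, no filter, the replicate block, an offset for GC content and length (GENCODE 29), and libraries as labelled, left out, or left out singly. The test was tried on simulated counts. Replicates of 1 group differed beyond sampling noise (chi-square per gene at least 6.97). Same-numbered replicates correlated between -0.25 and 0.30 over 18 pairs, 1 above 0.1, so numbers do not pair libraries.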

Additional observations from a re-analysis of the deposited data

Results flagged for a closer look

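No member of the complex differed between the lines in its response past the threshold, but 4 genes of the partner list did with A366 (interaction term in edgeR's quasi-likelihood fit, Mel92.1 minus MP41). These are 4 of 14 partners tested, where 13.8% of all genes were called. SUV39H2 differed by 0.47 on the log2 scale (adjusted p = 0.0301), with a change of 0.060 in Mel92.1 and -0.43 in MP41. CBX5 differed by 0.44 (adjusted p = 0.0191), with 0.037 and -0.42, but by -0.020 with the GC and length offset. UHRF1 differed by 0.30 (adjusted p = 0.0301), with -0.12 and -0.45, and DNMT1, the maintenance DNA methyltransferase, by 0.29 (adjusted p = 0.0417), with 0.075 and -0.23. With the libraries as labelled the first 3 turned, to -1.02, -0.97 and -1.06. None of the 4 was past the threshold without the exchanged libraries or with the offset, with adjusted p from 0.0630 to 0.278 and from 0.250 to 1.00 in edgeR's test. Of the 18 fits that left out 1 library each, the call was lost in 11 for DNMT1, 8 for SUV39H2, 8 for UHRF1 and 7 for CBX5.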

How the results depend on the processing

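The calls of EHMT2, ZNF644 and CDYL with A366 in MP41 stand among 6884 genes called there (46.0%). Each of the 5 genes had at least 552 counts in every library. Results are log2 changes unless called counts of genes, and the cause of a change was not tested except where the setting itself mixes lines or has fewer libraries. Where the reference gave GC content and length, 96.4% to 97.0% of the genes tested had both.

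The replicate number as a block kept the direction and side of the threshold of 47 of 50 values of the 5 genes. EHMT1 for A366 against UNC0642 in MP41 stood at -0.22 (adjusted p = 0.0617, edgeR), EHMT2 at -0.0024 over both inhibitors and at -0.028 between the lines. The blocked fit compared the lines at different replicate numbers. The value of -0.028 is therefore not a difference of line means. With this block the genes called were 46 for UNC0642 in Mel92.1 (100 without), 10 for A366 in Mel92.1 (31), 6 for A366 against UNC0642 in Mel92.1 (24), 9 for UNC0642 in MP41 (36), 171 for both inhibitors (348), and 59 and 1176 for the line difference with UNC0642 (95) and A366 (2179). The numbers do not pair the libraries.

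With the libraries as labelled, A366 in MP41 gave EHMT1 0.80, EHMT2 0.18, WIZ 1.21, UHRF1 0.36, SUV39H2 0.45, CBX5 0.42 and ZNF518B 1.075, and A366 in Mel92.1 gave EHMT2 0.083, WIZ -0.70 and CDYL 0.60. A366 against UNC0642 gave EHMT1 0.70 and WIZ 1.15 in MP41, and WIZ -0.67, ZNF644 0.36 and CDYL 0.49 in Mel92.1. EHMT1 over both inhibitors was 0.036. The line difference with A366 gave EHMT1 -1.497, WIZ -1.89, ZNF644 1.31, CDYL 1.35, CBX5 -0.97, UHRF1 -1.06 and SUV39H2 -1.02. The genes called were 0 in the 2 comparisons of A366 in Mel92.1, 0 with UNC0642 in either line and 0 for its line difference, 4 for both inhibitors and 7801 for the line difference with A366.

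Without the 4 exchanged libraries, EHMT2 with A366 in MP41 was 0.19, ZNF644 for A366 against UNC0642 in Mel92.1 was 0.027, and EHMT2 over both inhibitors was -0.028. Genes called were 40 and 116 for UNC0642 in Mel92.1 and MP41, 0 and 0 for A366 against DMSO and UNC0642 in Mel92.1, 79 for both inhibitors, and 56 and 208 for the line difference with UNC0642 and A366.

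With the GC and length offset, A366 in MP41 gave EHMT2 0.059, ZNF644 -0.18 and CBX5 0.028, and against UNC0642 EHMT1 -0.089 and ZNF644 -0.15. In Mel92.1 it gave EHMT1 0.25, EHMT2 0.019 and WIZ 0.29 with UNC0642, EHMT2 0.015 with A366, and EHMT2 -0.0045 and WIZ -0.17 between the inhibitors. Over both inhibitors EHMT1 was 0.062 and ZNF644 0.031. The line difference gave EHMT1 0.21, EHMT2 0.13 and WIZ 0.29 with UNC0642 and EHMT1 -0.035, WIZ 0.051 and CBX5 -0.020 with A366. EHMT2 between the lines with DMSO was -0.25. Genes called were 25 and 131 for UNC0642 in Mel92.1 and MP41, 12 and 2 for A366 against DMSO and UNC0642 in Mel92.1, 182 for both inhibitors, and 45 and 65 for the line difference with UNC0642 and A366.

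In limma voom with sample quality weights, EHMT1 with A366 in MP41 was -0.17, ZNF644 with A366 in Mel92.1 0.27, and A366 against UNC0642 gave WIZ -0.023 and CDYL -0.17 in MP41 and EHMT1 0.045 and ZNF644 0.081 in Mel92.1. The line difference with A366 gave EHMT2 -0.28 and ZNF644 0.78, and EHMT2 between the lines was 0.12. Genes called in voom, and then in DESeq2, were 413 and 384 for UNC0642 in Mel92.1, 154 and 180 for it in MP41, 3087 and 171 for A366 in Mel92.1, 214 and 213 between the inhibitors there, 2815 and 993 for both inhibitors, 243 and 315 for the line difference with UNC0642, and 9276 and 3489 for that with A366. In DESeq2 the line difference with A366 gave ZNF644 0.61, and EHMT2 over both inhibitors was -0.0014. It was -0.0020 with RLE factors and -0.0072 with no filter, which also gave EHMT1 -0.21 for A366 against UNC0642 in MP41 and 61 genes called with UNC0642 in MP41.

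Leaving out each library in turn, CDYL with A366 in MP41 ran from -0.24 to -0.18. Against UNC0642 in MP41, EHMT1 ran from -0.28 to -0.15, WIZ from -0.084 to 0.15, ZNF644 from -0.66 to -0.32 and CDYL from -0.19 to -0.090. With A366 in Mel92.1, EHMT1 ran from -0.12 to 0.0056, EHMT2 from -0.030 to 0.013 and WIZ from -0.013 to 0.088, and against UNC0642 there EHMT1 from -0.10 to 0.056 and ZNF644 from -0.12 to 0.091. With UNC0642, EHMT1 ran from -0.11 to 0.049, WIZ from -0.075 to 0.017 and CDYL from -0.017 to 0.19 in Mel92.1, and WIZ from -0.032 to 0.20 and ZNF644 from -0.053 to 0.0015 in MP41. Over both inhibitors EHMT1 ran from -0.045 to 0.0051 and EHMT2 from -0.022 to 0.024. The line difference with A366 ran from -0.0099 to 0.11 for EHMT1, -0.29 to -0.24 for EHMT2, 0.45 to 0.79 for ZNF644 and -0.0039 to 0.12 for CDYL, that with UNC0642 from -0.22 to 0.0084 for WIZ, and EHMT2 between the lines from 0.12 to 0.15. The line difference of ZNF644 with A366 was called without Mel92.1 DMSO replicate 1, MP41 A366 replicate 2 or Mel92.1 A366 replicate 3, and that of EHMT2 and its difference between the lines without Mel92.1 UNC0642 replicate 1. Genes called ran from 38 to 183 for UNC0642 in Mel92.1, 5 to 130 for it in MP41, 9 to 147 for A366 in Mel92.1, 5 to 47 between the inhibitors there, 161 to 715 for both inhibitors, and 65 to 176 and 621 to 3874 for the line difference with UNC0642 and A366.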
